A study of Mus musculus with 23 samples.

Results

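Neuregulins are growth factors with an EGF-like domain, and the ErbB receptors are a tyrosine kinase family, of which ErbB3 and ErbB4 bind neuregulins directly. The 8 genes described here are the neuregulins Nrg1, Nrg2, Nrg3 and Nrg4 and the receptors Egfr, Erbb2, Erbb3 and Erbb4. They were matched by symbol to 8 of the 45706 gene IDs of a mouse RNA sequencing count table. All 8 had enough reads to be tested, among 18823 genes.

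The libraries hold polyadenylated RNA from 3 cell populations of the mouse hippocampus, called CamK, Grik and SST in the sample titles. The labels give the cell type as excitatory pyramidal for CamK and Grik and as somatostatin-positive interneuron for SST, and the design text names the fields CA1 and CA3. Each population came from mice labelled SLM2 WT and SLM2 cKO, a conditional knockout of SLM2, an RNA-binding regulator of splicing encoded by Khdrbs3. There were 4 libraries in every group except CamK cKO, which had 3, 23 in all. The sources used here give no Cre driver, deleted exons, method of isolating the cells, or age, sex and number of animals. The labels do not say that replicates came from separate animals, so p-values measure the spread between these samples.

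As background, neuregulin precursors are mostly membrane proteins, and proteases release the EGF-like domain or leave it exposed at the cell surface. ErbB4 and ErbB3 bind neuregulins directly. ErbB3 has little kinase activity of its own and ErbB2 binds no known ligand, so each depends on pairing with another receptor. In the forebrain ErbB4 is best known from GABAergic interneurons, where neuregulins from pyramidal cells act on excitatory synapses. ErbB3 is best known from oligodendrocytes and Schwann cells, and EGFR from glia and progenitor cells.

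Each library had 87612006 to 112993538 gene reads, and 20816 to 22713 genes had at least 1 read. Levels are given as counts per 1000000 gene reads after scaling (CPM), and as CPM per kb of annotated exon where 1 gene is set against another. Markers fitted the population names: in WT libraries the mean of the CA1 marker Wfs1 was 356, 24.7 and 24.4 CPM in CamK, Grik and SST. The mean of the CA3 marker Grik4 was 30.3, 132 and 14.7 CPM, and that of Sst was 5.59, 8.13 and 998 CPM. The dentate granule cell marker Prox1 was present in both pyramidal populations, with 92.4 CPM in CamK and 82.4 CPM in Grik against 18.6 CPM in SST. Oligodendrocyte and astrocyte markers were found in every group, and none of the 12 marker lists had a gene at 0 in all libraries of a group. Total Khdrbs3 averaged 278 CPM in cKO and 373 CPM in WT libraries in CamK, 93.8 and 130 CPM in SST, but 414 CPM in cKO and 336 CPM in WT libraries in Grik. In Grik the total count was thus higher in the libraries labelled cKO. Since the deleted exons are not given, this total does not show whether the label holds. The groups are called the libraries labelled cKO below.

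**Figure D1:**
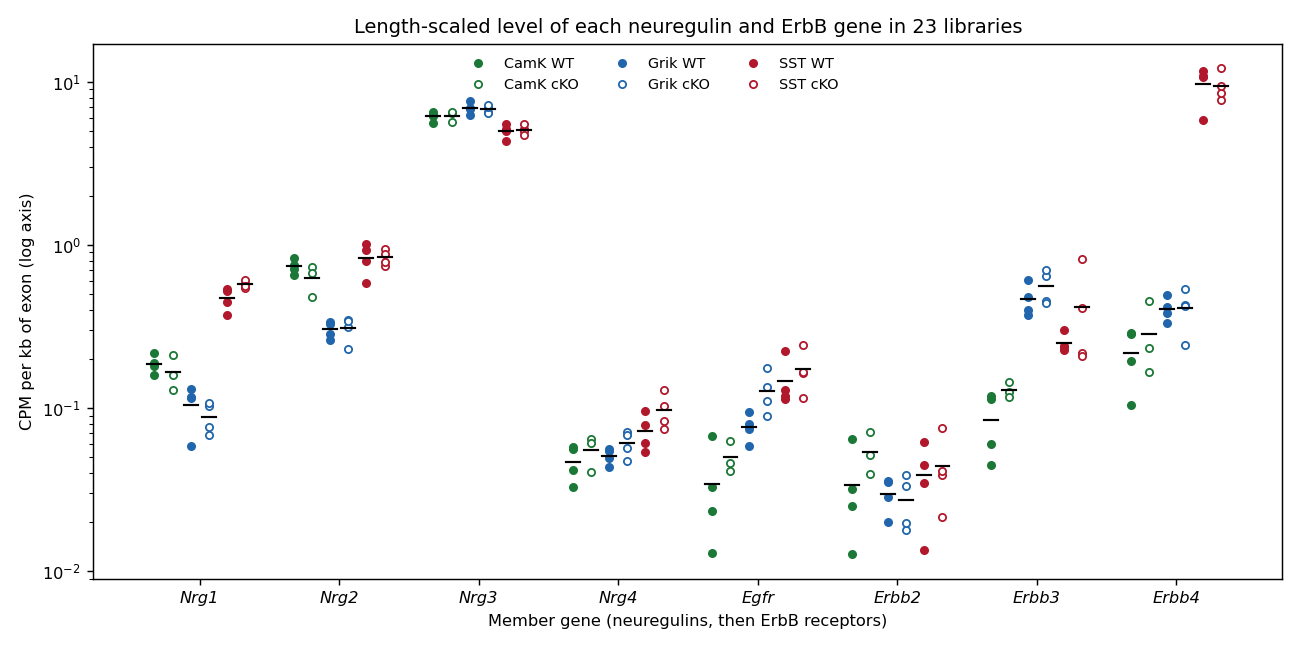
Level of each of the 8 genes in every library, in CPM per kb of exon on a log axis; filled circles are WT libraries, open circles are libraries labelled cKO, colours give the population and black bars the group mean. Nrg3 lay near 5 to 7 CPM per kb in every group, and Erbb4 reached 9.75 CPM per kb in SST WT against 0.218 in CamK WT and 0.406 in Grik WT.

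Nrg3 was by far the most abundant neuregulin in all 3 populations, and the receptor gene Erbb4 was far higher in SST than in both pyramidal populations. In WT libraries Erbb4 was 44.7-fold higher in SST than in CamK and 24.0-fold higher in SST than in Grik. Nrg1 was also highest in SST, Nrg2 was lowest in Grik, and Erbb3 was highest in Grik. None of the 8 genes passed the test between libraries labelled cKO and WT in any population. In the WT comparisons 5 of the 8 passed between CamK and Grik, where 42.0% of all tested genes did. Of these 2 were higher in CamK and 3 lower, beside 20.9 and 21.1% of all genes. Between CamK and SST 5 of 8 passed against 60.1% of all genes, 1 higher and 4 lower in CamK, beside 29.5 and 30.5%. Between Grik and SST 6 of 8 passed against 57.3%, 2 higher and 4 lower in Grik, beside 28.1 and 29.2%. As a share the 8 genes were thus close to or moderately above the background, and what stood out was the size of the Erbb4 difference between SST and the others.

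Erbb4 is a neuregulin receptor of GABAergic interneurons. Its gene covers chr1:68032186-69108059 on the minus strand (GRCm38, GENCODE M21), with 12355 bases of exon. The SST WT libraries had 72.3, 143, 134 and 132.5 CPM in replicates 1, 2, 3 and 5, or 120.5 ± 32.4 CPM (SD, n = 4). CamK WT libraries had 2.41, 3.52, 1.29 and 3.54 CPM in replicates 2 to 5, and Grik WT libraries 4.10, 5.13, 4.76 and 6.09 CPM in replicates 3 to 6. Every SST library was thus at least an order of magnitude above every pyramidal library, and the lowest SST value was replicate 1. The log2 difference was -5.48 for CamK minus SST (SE 0.38, adjusted p = 2.38e-10) and -4.58 for Grik minus SST (SE 0.36, adjusted p = 1.54e-09) by edgeR's quasi-likelihood test. In these bulk samples, fewer cells of a type and less RNA per cell cannot be told apart.

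Between the pyramidal populations all CamK WT values of Erbb4 were below all Grik WT values, with a log2 difference of -0.90 (SE 0.34, adjusted p = 0.0401). Groups did not overlap for 38.3% of all genes in that comparison, and for 4 of the 8 genes described here. This call did not hold in 4 of the 8 alternative fits, with adjusted p-values of 0.0541 to 0.0709. It was lost as well without CamK WT replicate 2 (0.0825), CamK WT replicate 4 (0.119), or Grik WT replicate 4 (0.0708), 5 (0.0587) or 6 (0.0979). The Erbb4 difference without CamK WT replicate 4 was -0.67.

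The low Erbb4 level of the pyramidal libraries was set beside the markers Gad1, Gad2, Slc32a1 and Lhx6 of GABAergic interneurons. Relative to SST WT, Erbb4 was at 2.23% in CamK WT and 4.17% in Grik WT. The corresponding figures were 2.30 and 1.89% for Gad1, 1.23 and 0.693% for Gad2, 1.55 and 0.822% for Slc32a1, and 0.294 and 0.302% for Lhx6. In CamK the Erbb4 percentage was thus close to that of Gad1 and above those of the other markers, and in Grik it was above all 4. The summed level of the 4 markers was 41.5 to 136 CPM in CamK WT and 61.1 to 82.5 CPM in Grik WT libraries, against 5017 to 5638 CPM in SST WT.

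CamK WT replicate 4, which had the lowest Erbb4 value of all libraries, also had the lowest marker sum, 41.5 CPM. Replicates 3 and 5, with the highest Erbb4 values of CamK WT, had sums of 135.5 and 136 CPM. The libraries labelled cKO did not follow this order: CamK cKO replicate 5 had the highest Erbb4 of all CamK libraries (5.61 CPM) with a sum of 93.04 CPM, and replicate 6 had 2.90 CPM with a sum of 129.9 CPM. The 8 markers of other interneuron classes summed to 496, 817 and 585 CPM in CamK, Grik and SST WT. The GABAergic markers summed to means of 93.9, 69.6 and 5341 CPM in the same groups. Since the orders differ, the sum of the 8 is not a measure of interneuron content across populations. Pvalb and Reln were highest in SST, with 140 and 276 CPM, and so was Htr3a, with 10.8 CPM. Cck and Lamp5 were highest in CamK, with 365 and 41.6 CPM. Cnr1 (135 CPM), Vip and Calb2 were highest in Grik. Vip had means of 0.348, 10.5 and 0.610 CPM and Calb2 of 12.9, 331 and 38.02 CPM in CamK, Grik and SST WT libraries. The source of these transcripts in the pyramidal libraries was not tested, and neither was the part of interneurons in their Erbb4 level.

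Erbb3, the receptor without strong kinase activity of its own, lies at chr10:128567523-128589652 on the minus strand, with 6016 bases of exon. It was highest in Grik WT libraries, with 2.42, 3.67, 2.26 and 2.90 CPM in replicates 3 to 6. SST WT libraries had 1.44, 1.82, 1.43 and 1.36 CPM in replicates 1, 2, 3 and 5, and CamK WT libraries 0.715, 0.687, 0.271 and 0.361 CPM in replicates 2 to 5. The 3 groups did not overlap. The CamK level was 5.51-fold below that of Grik (log2 difference -2.46, SE 0.36, adjusted p = 6.70e-06) and 2.97-fold below that of SST (-1.57, SE 0.36, adjusted p = 0.000617).

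The Erbb3 difference between Grik and SST was smaller (0.89, SE 0.34, adjusted p = 0.0263) and less firm. It missed the threshold without scaling beyond the library total (adjusted p = 0.0671), and without Grik WT replicate 4 (0.0809) or SST WT replicate 1 (0.0553), 3 (0.0557) or 5 (0.0604). Groups did not overlap for 38.3% of all genes between CamK and Grik, 53.9% between CamK and SST and 52.3% between Grik and SST.

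As a sum, oligodendrocyte markers had the same order of the WT groups as Erbb3. Their summed level over 7 genes in WT libraries was 158 to 240 CPM for CamK, 859 to 1215 CPM for Grik and 379 to 771 CPM for SST. Relative to Grik WT, Erbb3 stood at 18.1% in CamK and 53.8% in SST, beside 6.34 and 35.6% for Mog and 7.25 and 40.3% for Cnp. The sum of all 7 markers averaged 206, 1039 and 582 CPM in CamK, Grik and SST WT. Relative to Grik it was thus less reduced than Mog and Cnp, and about as reduced as Erbb3. The summed markers of oligodendrocyte precursors were 4.55 to 9.33, 74.7 to 122 and 33.1 to 36.9 CPM in CamK, Grik and SST WT libraries. CamK WT replicate 4 had both the lowest Erbb3 level and the lowest oligodendrocyte marker sum of all libraries. Within SST WT the orders differed. Replicate 1 had the lowest sum of that group, 379 CPM, with 1.44 CPM of Erbb3. Replicate 5 had a sum of 693 CPM with the lowest Erbb3 level of that group, 1.36 CPM. The part of oligodendrocytes in the Erbb3 differences was not tested.

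Egfr, the founding member of the receptor family and the receptor of EGF, lies at chr11:16752203-16918158 on the plus strand, with 11326 bases of exon. SST WT libraries had 1.29, 2.53, 1.34 and 1.46 CPM in replicates 1, 2, 3 and 5. Grik WT libraries had 0.847, 0.661, 0.904 and 1.08 CPM in replicates 3 to 6, and CamK WT libraries 0.760, 0.266, 0.147 and 0.372 CPM in replicates 2 to 5. SST was above both pyramidal populations in every library, while CamK and Grik overlapped through CamK replicate 2. The log2 difference of Egfr was -2.09 for CamK minus SST (SE 0.36, adjusted p = 1.80e-05), -1.17 for CamK minus Grik (SE 0.36, adjusted p = 0.0104) and -0.92 for Grik minus SST (SE 0.34, adjusted p = 0.0225). The last was lost without Grik WT replicate 4 (adjusted p = 0.0720) or SST WT replicate 2 (0.122), where the Egfr difference was -0.64. Groups did not overlap for 53.9% of all genes between CamK and SST and 52.3% between Grik and SST.

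Astrocyte markers were set beside Egfr. Relative to SST WT, Egfr was at 23.3% in CamK and 52.8% in Grik. Of the 7 markers, Aqp4 was at 29.5 and 60.2% and Gfap at 15.2 and 54.7%. The glutamate transporter gene Slc1a2 did not share this order, with 174, 544 and 124 CPM in CamK, Grik and SST WT libraries. The sum of all 7 astrocyte markers ranged from 139 to 222 CPM in CamK WT libraries, 587 to 626 CPM in Grik WT libraries and 148 to 299 CPM in SST WT libraries. Its means were 192, 602 and 198 CPM, so that the sum was highest in Grik and Egfr in SST. SST WT replicate 2, with the highest Egfr of its group, also had the highest sums of its group for astrocyte (299 CPM), oligodendrocyte (771 CPM) and vascular markers (36.7 CPM). Grik WT replicate 6, with the highest Egfr of its group (1.08 CPM), had the lowest astrocyte sum of its group (587 CPM). The part of these cells in the Egfr differences was not tested.

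Erbb2, the receptor without a ligand of its own, lies at chr11:98412470-98437716 on the plus strand, with 5210 bases of exon. It was rare, with 6 to 41 reads per library, and ranged from 0.0660 to 0.392 CPM. Its mean in WT libraries was 0.176 ± 0.117 CPM for CamK, 0.156 ± 0.0386 for Grik and 0.202 ± 0.106 for SST (SD, n = 4 each). The groups overlapped, and no Erbb2 comparison between populations passed the test. The interval of the log2 difference between CamK and SST WT ran from -1.204 to 0.80, and the libraries of a group spread widely, with a coefficient of variation of 66.3% in CamK WT and 52.6% in SST WT. The exons of Erbb2 share 9 bases with those of Mien1 on the other strand, which had 4076 to 7560 reads per library. Without a stated strand setting of the counting, which the sources used here do not give, the Erbb2 count is uncertain. Nrg1 shares 482 exon bases with Gm26578 on the other strand, which had 0 to 5 reads per library.

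**Figure D2:**
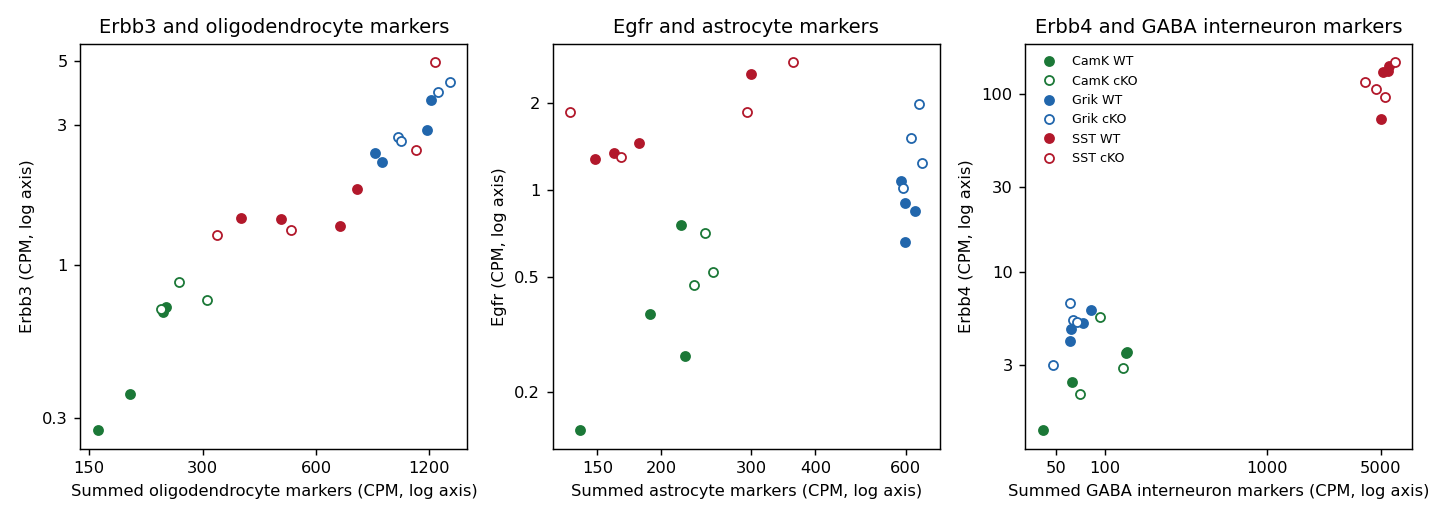
Level of Erbb3, Egfr and Erbb4 against the summed level of oligodendrocyte, astrocyte and GABAergic interneuron markers in each of the 23 libraries, in CPM on log axes; filled circles are WT libraries and open circles libraries labelled cKO. The Erbb3 level was lowest in CamK, where the oligodendrocyte sum was lowest (158 to 308 CPM), and Erbb4 and the interneuron sum both separated SST from the pyramidal libraries.

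Among the ligands, Nrg3 is a neuregulin largely restricted to the nervous system that binds ErbB4. Its gene lies at chr14:38368952-39473088 on the minus strand, with 6817 bases of exon. CamK WT libraries had 42.1, 38.2, 42.5 and 44.2 CPM in replicates 2 to 5, Grik WT libraries 51.8, 42.8, 46.2 and 47.4 CPM in replicates 3 to 6, and SST WT libraries 29.65, 37.7, 35.0 and 34.2 CPM in replicates 1, 2, 3 and 5. The spread within a group was small, and every SST value was below every pyramidal value. Such separation was found for 53.9% of all genes between CamK and SST and 52.3% between Grik and SST. The Nrg3 differences were correspondingly small but passed the test: 0.29 for CamK minus SST (log2, SE 0.078, adjusted p = 0.00243) and 0.46 for Grik minus SST (SE 0.078, adjusted p = 1.70e-05). CamK and Grik overlapped, and the difference of -0.17 did not pass (adjusted p = 0.0824).

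SST WT libraries had 72.6% of the Grik WT level of Nrg3. For pyramidal markers this was 5.32% for Slc17a7, 15.9% for Camk2a, 3.11% for Neurod6 and 6.69% for Neurod2, and the part of pyramidal RNA in the Nrg3 level of SST libraries was not tested.

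Nrg1, the best studied neuregulin, lies at chr8:31814551-32884029 on the minus strand, with 10351 bases of exon. It is transcribed from several promoters into isoforms that gene-level counts cannot separate. SST WT libraries had 4.60, 3.87, 5.39 and 5.60 CPM in replicates 1, 2, 3 and 5. CamK WT libraries had 1.65, 1.88, 1.95 and 2.26 CPM in replicates 2 to 5, and Grik WT libraries 0.607, 1.21, 1.35 and 1.195 CPM in replicates 3 to 6. The 3 groups did not overlap. The same held for 38.3% of all genes between CamK and Grik, 53.9% between CamK and SST and 52.3% between Grik and SST. The Nrg1 log2 difference was -1.33 for CamK minus SST (SE 0.20, adjusted p = 3.23e-06), -2.16 for Grik minus SST (SE 0.21, adjusted p = 2.24e-09) and 0.83 for CamK minus Grik (SE 0.21, adjusted p = 0.00210).

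Nrg2, a close relative of Nrg1 with its own EGF-like domain, lies at chr18:36017652-36197380 on the minus strand, with 3139 bases of exon. CamK WT libraries had 2.62, 2.38, 2.06 and 2.22 CPM in replicates 2 to 5 and SST WT libraries 3.17, 2.52, 2.93 and 1.82 CPM in replicates 1, 2, 3 and 5. Grik WT libraries had 0.825, 0.892, 1.07 and 1.03 CPM in replicates 3 to 6, below every other WT library. Nrg2 was 2.43-fold higher in CamK than in Grik (log2 difference 1.28, SE 0.19, adjusted p = 4.80e-06) and 2.74-fold higher in SST than in Grik (-1.45 for Grik minus SST, SE 0.19, adjusted p = 3.06e-07). CamK and SST overlapped, with a difference of -0.17 and an interval from -0.54 to 0.20 (adjusted p = 0.426). Among the 4 ligands Nrg2 thus had the largest difference between the pyramidal populations, and Nrg1 the largest between SST and each of them, though differences between ligands were not tested.

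Nrg4, a neuregulin known mainly as a secreted factor of adipose tissue, lies at chr9:55220222-55326844 on the minus strand, with 6075 bases of exon. It was rare, with 18 to 86 reads per library. CamK WT libraries had 0.199 to 0.350 CPM, Grik WT libraries 0.263 to 0.340 CPM and SST WT libraries 0.325 to 0.584 CPM. No Nrg4 difference between WT groups passed the test, the lowest adjusted p being 0.0535 for CamK minus SST (log2 difference -0.62, SE 0.27). That Nrg4 difference passed without CamK WT replicate 4 (0.0433) or 5 (0.0473) or SST WT replicate 2 (0.0498) or 3 (0.0321). With no scaling beyond the total, Nrg4 passed the test for CamK minus SST (-0.67, adjusted p = 0.0369) and Grik minus SST (-0.64, adjusted p = 0.0455). Its exons share 368 bases with those of Fbxo22 on the other strand, which had 3439 to 5965 reads per library. Since the strand setting of the counting is not given in the sources used here, the Nrg4 count is uncertain.

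Set against each other per kb of exon, the neuregulins were dominated by Nrg3. It made up 86.3 ± 1.01% of the summed neuregulin level of WT libraries in CamK, 93.7 ± 1.06% of it in Grik and 78.4 ± 3.48% in SST (SD, n = 4 each). The share of Nrg2 was 10.4, 4.14 and 13.1%, that of Nrg1 2.64, 1.45 and 7.40%, and that of Nrg4 0.658, 0.692 and 1.15%. With the longest transcript as length the Nrg4 shares were 1.16, 1.19 and 2.03%, and in SST WT the share of Nrg1 (8.62%) was above that of Nrg2 (8.22%). The sum of the 4 neuregulins differed little between populations, at 7.10 ± 0.374, 7.36 ± 0.509 and 6.38 ± 0.403 CPM per kb in CamK, Grik and SST WT.

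The sum of the 4 receptors, in contrast, in WT libraries was 0.370 ± 0.0988 CPM per kb for CamK, 0.981 ± 0.144 for Grik and 10.2 ± 2.67 for SST. Erbb4 made up 57.2, 41.5 and 95.5% of this level in CamK, Grik and SST WT, and Erbb3 22.5, 47.4 and 2.62%. In Grik WT the levels of Erbb3 (0.467 CPM per kb) and Erbb4 (0.406) overlapped between libraries. Egfr took 9.002, 7.99 and 1.47%. Erbb2 took 3.13% in Grik WT and 0.400% in SST WT. In CamK WT its share was 11.3 ± 11.7% (SD, n = 4), between 3.22 and 28.6%, with the highest in replicate 4 and a mean of 5.49% without that library, a value added after the data were seen. In SST WT Erbb4 itself, at 9.75 ± 2.63 CPM per kb, was above Nrg3, at 5.01 ± 0.490, and the values of the 2 genes did not overlap. With the longest transcript as length they did: Erbb4 was at 10.01 ± 2.69 and Nrg3 at 8.51 ± 0.833 CPM per kb, and in replicate 1 Erbb4, at 6.01, was below Nrg3, at 7.39. These shares are descriptions, with no test.

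**Figure D3:**
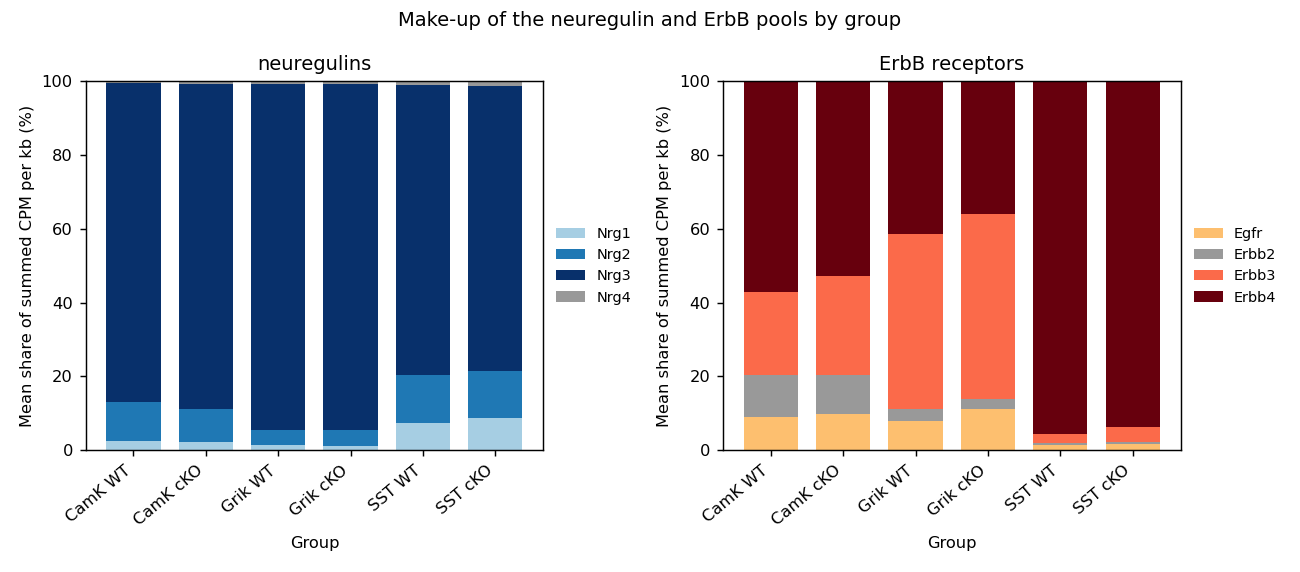
Mean share of each gene in the summed neuregulin level (left) and in the summed ErbB receptor level (right) of the 6 groups, in percent of CPM per kb of exon. Nrg3 fills 77.0 to 93.7% of the neuregulin bars, while the receptor bars are mostly Erbb4 in SST (93.7 to 95.5%) and a mix of Erbb4 and Erbb3 in CamK and Grik.

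The full order of levels in CamK WT was Nrg3, Nrg2, Erbb4, Nrg1, Erbb3, Nrg4, Egfr and Erbb2, where Erbb4 and Nrg1 overlapped, as did each neighbouring pair from Erbb3 down. In Grik WT it was Nrg3, Erbb3, Erbb4, Nrg2, Nrg1, Egfr, Nrg4 and Erbb2, with overlap between Erbb3 and Erbb4, Erbb4 and Nrg2, and Nrg1 and Egfr. In SST WT it was Erbb4, Nrg3, Nrg2, Nrg1, Erbb3, Egfr, Nrg4 and Erbb2, and only Nrg4 and Erbb2 overlapped. The order depends on the length used. With the longest transcript in place of all exons, Erbb4 and Nrg3 overlapped in SST WT, Nrg1 came before Nrg2 in SST WT and before Erbb4 in CamK WT, and 4 of 8 genes kept their place in each of these groups.

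The same comparisons among libraries labelled cKO use other libraries of the same populations. Of the 8 genes 4 passed between CamK and Grik (35.7% of all tested genes did), 6 between CamK and SST (56.4%) and 5 between Grik and SST (57.9%). Erbb4 was again far higher in SST, where the libraries labelled cKO had 95.9, 149.5, 105 and 116.5 CPM in replicates 3, 4, 5 and 7. Its log2 difference was -5.05 for CamK minus SST (SE 0.42, adjusted p = 4.46e-09) and -4.53 for Grik minus SST (SE 0.36, adjusted p = 1.74e-09). Between CamK and Grik the Erbb4 difference of -0.53 did not pass (adjusted p = 0.289), and the groups overlapped through CamK cKO replicate 5, which had 5.61 CPM beside 2.05 and 2.90 in the others. Without that replicate it was -1.03 with an adjusted p of 0.0498, and with limma-voom on all libraries -0.93 with an adjusted p of 0.0471.

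In the cKO groups Nrg1 was 1.87-fold higher in CamK than in Grik (adjusted p = 0.00228), a call that the replicate block ended (log2 difference 0.65, adjusted p = 0.0838). Nrg1 was 3.44-fold higher in SST than in CamK (adjusted p = 2.55e-07) and 6.44-fold higher than in Grik (adjusted p = 5.67e-11). Nrg2 was 2.04-fold higher in CamK than in Grik (adjusted p = 0.000207) and 2.73-fold higher in SST than in Grik (adjusted p = 3.12e-07). The Nrg2 difference of -0.42 between CamK and SST did not pass (adjusted p = 0.0702) and did so without CamK cKO replicate 4 (0.0486), with DESeq2 (0.0485) and, at -0.52, with no scaling beyond the total (0.0357). Nrg3 was lower in SST than in CamK by 1.22-fold (adjusted p = 0.00501) and than in Grik by 1.34-fold (adjusted p = 5.33e-05). Its difference of -0.13 between CamK and Grik did not pass (adjusted p = 0.239) and did so with limma-voom, at -0.19 (adjusted p = 0.0475).

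Nrg4 passed in the cKO groups, at 0.593 ± 0.1502 CPM in SST (n = 4) against 0.336 ± 0.0771 in CamK (n = 3, adjusted p = 0.0215) and 0.371 ± 0.0662 in Grik (n = 4, adjusted p = 0.0341) by edgeR. Both calls were lost without SST cKO replicate 3, at 0.0820 and 0.139. The first was lost without CamK cKO replicate 5 (0.111) and the second without Grik cKO replicate 2 (0.0822) or 3 (0.113) or SST cKO replicate 5 (0.0638). Both were also lost without a filter on low counts (0.0532 and 0.0776), the first with only the populations compared (0.0507) and the second with the replicate block (0.0503). The Nrg4 count carries the overlap with Fbxo22 stated above.

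Erbb3 and Egfr did not pass between Grik and SST in the cKO groups (log2 differences 0.43 and -0.44, adjusted p = 0.272 and 0.267). Erbb3 passed there on all libraries with limma-voom (0.67, adjusted p = 0.0292) and with the replicate block (0.89, adjusted p = 0.0227), and without SST cKO replicate 7 by edgeR (1.002, adjusted p = 0.00405). Both genes were lower in CamK than in SST (Erbb3 -1.68, adjusted p = 0.000700; Egfr -1.79, adjusted p = 0.000332) and lower in CamK than in Grik (-2.12, adjusted p = 0.000135; -1.35, adjusted p = 0.00715).

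The question named by the study's design text is how expression differs between the genotypes in each population. Between libraries labelled cKO and WT 0 of the 8 genes passed in CamK, Grik or SST, by edgeR with adjustment over all genes. At an unadjusted p under 0.05 the numbers were 0, 1 and 1, beside 1327, 919 and 1102 of all 18823 tested genes. Limma-voom and DESeq2 also called 0 of the 8 in each population. Of all 18823 tested genes 2 passed in each population by edgeR, or 0.0106%, so a count of 0 among 8 is what the background gives. That number over all genes changed under other settings, with ranges given in the last section. The lowest adjusted p among the 8 was 0.785 in CamK, 0.992 in Grik and 0.833 in SST.

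Nrg3, the best measured neuregulin, had the narrowest intervals. Its log2 difference, cKO minus WT, was 0.017 in CamK (95% interval -0.16 to 0.19), -0.021 in Grik (-0.18 to 0.14) and 0.019 in SST (-0.14 to 0.18). Erbb4 differed by -0.044 in SST, with an interval from -0.68 to 0.59, by 0.013 in Grik (-0.68 to 0.70) and by 0.39 in CamK (-0.39 to 1.16). The Erbb4 difference in CamK was -0.12 without cKO replicate 5, which had 5.61 CPM, and 0.0034 with limma-voom. The data therefore bound a change of Nrg3 far more tightly than one of Erbb4.

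**Figure D4:**
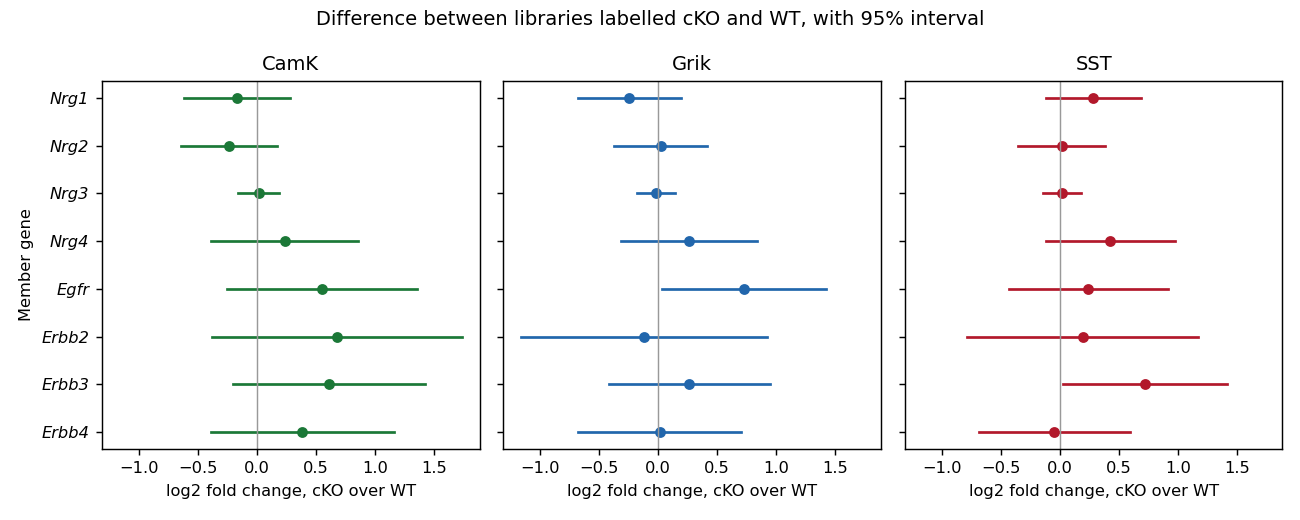
Log2 difference of each gene between libraries labelled cKO and WT in CamK, Grik and SST; points are edgeR estimates and lines their 95% intervals without adjustment for multiple genes. The intervals of Nrg3 stay within 0.2 of zero, those of Erbb2 extend beyond 0.7 on either side in Grik and SST, and 0 of the 24 differences passed after adjustment.

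In SST, Nrg1 was the only one of the 8 genes whose groups did not overlap by genotype. The libraries labelled cKO had 5.67, 5.94, 6.35 and 5.77 CPM in replicates 3, 4, 5 and 7, all above the highest WT value of 5.60 CPM. The log2 difference was 0.29 (SE 0.19, adjusted p = 0.850), and groups did not overlap for 2.70% of all genes in SST. In CamK and Grik the Nrg1 differences were -0.17 and -0.24 with overlap (adjusted p = 0.907 and 0.992), and groups did not overlap for 6.75 and 4.59% of all genes.

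Erbb3 in SST had an unadjusted p of 0.0413 (log2 difference 0.72, SE 0.33, adjusted p = 0.833). The libraries labelled cKO had 1.31, 1.26, 2.48 and 4.93 CPM in replicates 3, 4, 5 and 7, so that 2 were above all WT libraries and 2 below. Without replicate 7 the Erbb3 difference was 0.16, and with the replicate block it was 0.29. The oligodendrocyte marker sums of the same 4 libraries were 514, 328, 1104 and 1239 CPM, in the same high and low pairs. The median difference of the 7 oligodendrocyte markers between the genotypes in SST was 0.76, and 0 passed. Their part in the Erbb3 values was not tested. In CamK, Erbb3 (0.61), Egfr (0.55) and Erbb2 (0.68) also had positive differences that did not pass, with adjusted p-values of 0.785, 0.802 and 0.816. There the median difference was 0.53 over the 7 astrocyte markers and 0.48 over the 7 oligodendrocyte markers, of which 0 passed. It was 1.03 over the 6 vascular markers, of which 0 passed. The sums of the vascular markers were 3.83 to 6.88 CPM in the CamK libraries labelled cKO and 1.69 to 3.05 CPM in the WT libraries, with no overlap. Astrocyte sums did not overlap either, at 231 to 252 CPM in cKO and 139 to 222 CPM in WT. Taken singly, 6.75% of all tested genes did not overlap between the genotypes in CamK. Oligodendrocyte sums overlapped, at 232 to 308 and 158 to 240 CPM. The part of these markers in the 3 receptor differences was not tested.

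Egfr in Grik had an unadjusted p of 0.0422 (0.73, SE 0.34, adjusted p = 0.992). The libraries labelled cKO had 1.02, 1.99, 1.52 and 1.24 CPM in replicates 1 to 4, of which 3 were above the highest WT value of 1.08 CPM. The astrocyte sums there were 592 to 647 CPM, against 587 to 626 CPM in WT, and the ranges overlapped. Over the 8 genes the median log2 difference was 0.31 in CamK, 0.016 in Grik and 0.22 in SST, beside -0.0014, 0.0035 and 0.023 over all tested genes.

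Differences of the genotype effect between populations were tested as interactions. Again 0 of the 8 genes passed in any of the 3 by edgeR, and 0 had an unadjusted p under 0.05. Of all genes 1, 0 and 2 passed for CamK against Grik, CamK against SST and Grik against SST, or 0.00531, 0 and 0.0106%. In the same order 1223, 1477 and 727 of all 18823 tested genes had an unadjusted p under 0.05. The interaction of Nrg1 between Grik and SST was -0.53 with an interval from -1.12 to 0.064 (adjusted p = 0.9999), and that between CamK and SST -0.46, from -1.06 to 0.15 (adjusted p = 0.690). Both intervals include 0 and extend to about a 2-fold difference of Nrg1.

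Other genes of the pathway were taken from 5 lists of 78 genes, of which 77 were matched and 76 tested. Of these 48 passed between CamK and Grik WT (63.2%), 57 between CamK and SST WT (75%) and 60 between Grik and SST WT (78.95%). In the genotype comparisons 0 of the 76 passed in each population by edgeR, with 5, 7 and 4 at an unadjusted p under 0.05 in CamK, Grik and SST. Of all 18823 tested genes 1327, 919 and 1102 were under that value. The shares of the WT comparisons were above those of all genes given above (42.0, 60.1 and 57.3%), which is a description of a chosen list.

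Among the 7 tested EGF-family ligands outside the neuregulins, 2 were higher and 2 lower in CamK than in Grik, 1 higher and 2 lower in CamK than in SST, and 2 higher and 4 lower in Grik than in SST. Of all genes 20.9% were higher and 21.1% lower in the first comparison, 29.5 and 30.5% in the second and 28.1 and 29.2% in the third, and with 7 genes the ligand counts are small. The median log2 differences were -0.26, -0.37 and -1.11, beside 0.0078, -0.021 and -0.026 over all genes. Hbegf, which binds EGFR and ErbB4, had means of 0.779, 1.72 and 6.71 CPM in CamK, Grik and SST WT, an order like that of Egfr. It was lower in CamK than in SST by 3.10 (log2, SE 0.28, adjusted p = 9.71e-10). Tgfa, a ligand of EGFR, was highest in Grik, with 18.0, 28.0 and 8.23 CPM. Cspg5, a transmembrane proteoglycan with an EGF-like domain, had 63.0, 44.5 and 95.7 CPM.

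Of the 13 proteases that process neuregulins and ErbB4, 2 were higher and 7 lower in CamK than in Grik, 3 higher and 2 lower in CamK than in SST, and 6 higher and 3 lower in Grik than in SST. The shares of all genes were 20.9 and 21.1%, 29.5 and 30.5%, and 28.1 and 29.2%, so that the 5 of 13 called between CamK and SST were below the 60.1% of all genes. Adam10, a sheddase of many membrane proteins, had 51.4, 42.2 and 31.5 CPM in CamK, Grik and SST WT. Bace2 was highest in Grik, with 1.59, 5.50 and 0.987 CPM, a log2 difference of 2.48 from SST (SE 0.24, adjusted p = 1.63e-09). Adam19, which can cleave Nrg1, was lower in CamK than in SST by 1.07 on the log2 scale (SE 0.11, adjusted p = 8.54e-09), with 11.02 and 23.2 CPM. Psen2, a subunit of gamma-secretase, was lower in Grik than in SST by 0.35 (SE 0.12, adjusted p = 0.0147), and this call was lost without Grik WT replicate 3 (0.0788), Grik WT replicate 4 (0.0792) or SST WT replicate 2 (0.0530).

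The 15 genes of receptor inhibition and turnover had 3 higher and 6 lower in CamK than in Grik, 5 higher and 5 lower in CamK than in SST, and 6 higher and 6 lower in Grik than in SST, beside 20.9 and 21.1%, 29.5 and 30.5%, and 28.1 and 29.2% of all genes. Lrig1, a negative regulator of ErbB receptors, was at 8.65, 2.36 and 7.01 CPM in CamK, Grik and SST WT, higher in CamK than in Grik by 1.87 (log2, SE 0.18, adjusted p = 1.01e-08). Spry4, an inhibitor of signalling from receptor tyrosine kinases, was highest in SST, with 14.4, 19.9 and 91.2 CPM. Spry1 had 5.30, 10.2 and 4.29 CPM and the ubiquitin ligase gene Cblb 41.6, 55.2 and 24.2 CPM, with the lowest means in SST. By genotype, Spry4 in Grik was lower in the libraries labelled cKO by 0.95 (adjusted p = 0.0330) when Grik WT replicate 6 was left out, and did not pass with all libraries (-0.73, SE 0.22, adjusted p = 0.820).

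Of the 27 adaptors and signal transducers, 7 were higher and 10 lower in CamK than in Grik, 10 higher and 16 lower in CamK than in SST, and 10 higher and 12 lower in Grik than in SST. Of all genes 20.9 and 21.1%, 29.5 and 30.5%, and 28.1 and 29.2% did so. Stat5b, a transcription factor that can act with the ErbB4 intracellular domain, had 10.8, 3.64 and 54.5 CPM in CamK, Grik and SST WT. It was lower in Grik than in SST by 3.90 (log2, SE 0.12, adjusted p = 2.46e-18). The docking protein gene Gab1 was lowest in CamK, with 1.88, 16.7 and 10.6 CPM, and Kalrn, a guanine nucleotide exchange factor of dendritic spines, was lowest in SST, with 863, 547 and 148 CPM.

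Of the 14 scaffolds and nuclear partners of ErbB4, 6 were higher and 3 lower in CamK than in Grik, 10 higher and 3 lower in CamK than in SST, and 8 higher and 3 lower in Grik than in SST, where the shares of all genes were 20.9 and 21.1%, 29.5 and 30.5%, and 28.1 and 29.2%. The median differences were 0.15, 0.91 and 0.56, beside 0.0078, -0.021 and -0.026 over all genes. Erbin, named for its interaction with ErbB2, was highest in SST with 8.45, 16.2 and 42.5 CPM, a difference of -2.33 for CamK minus SST (log2, SE 0.23, adjusted p = 1.80e-08). The syntrophin genes Sntb1 and Sntb2 had different orders. Sntb1 was highest in CamK, with 3.97, 0.367 and 0.960 CPM in CamK, Grik and SST WT, and Sntb2 had 7.80, 11.6 and 2.96 CPM, lower in SST than in Grik by 1.97 on the log2 scale (SE 0.15, adjusted p = 3.86e-11).

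For each of the 8 genes the 2 genes with the most similar profile over the 23 libraries were found among 12965 with a mean of at least 1 CPM, by the root mean square difference of centred log2 levels after adding 0.5 CPM. The added value reduces the differences of genes with a low level. For Erbb4 they were Hapln1 (0.31) and Dlx6os1 (0.32), where the median of all candidates was 2.33. Hapln1, a link protein of the extracellular matrix, had 33.6 CPM in SST WT against 0.376 in CamK WT and 0.873 in Grik WT. For Erbb3 they were Hepacam (0.20) and Dock1 (0.22), against a median of 0.84. For Egfr they were Npc1 (0.24) and Abhd3 (0.25), against 0.67.

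Among the ligands, Nrg1 was most like Cacng7 (0.22) and Ccdc184 (0.22), against a median of 0.92. Cacng7, an auxiliary subunit of AMPA receptors, had 36.5, 23.5 and 91.8 CPM in CamK, Grik and SST WT. Nrg2 was most like Rgs16 (0.16) and Camk2g (0.18), against 0.59. Nrg3 was most like Nadk2 (0.087) and Eif2b3 (0.088), against 0.35. Nrg4 and Erbb2 were mostly below the added 0.5 CPM, so that no gene is named for them.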

How the data were processed

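The values are raw read counts for Ensembl genes, deposited by the authors with 1 column per library. Trimmomatic, STAR and the build GRCm38 are named in the submitters' processing notes. The sources used here give no versions, annotation or strand setting. Summary rows that name no gene (12.4 to 18.4% of reads) were left out.

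Tests used edgeR 4.0.16 (R 4.3.3): filterByExpr over 6 groups, TMM scaling, robust glmQLFit on all 23 libraries (17 residual degrees of freedom), glmQLFTest, and Benjamini-Hochberg adjustment over all 18823 genes within each of 12 comparisons, with a threshold of 0.05. The function was tested on simulated counts. CPM was computed here with TMM scaling. Exon lengths and positions are from GENCODE M21, which matched 45143 IDs.

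Alternatives were relative log expression scaling, no scaling beyond the total, no filter, at least 3 libraries with a CPM of 1 or more, limma-voom (limma 3.58.1), DESeq2 1.42.0, only the populations compared, the replicate number as a block, and leaving out each library. Pseudocount for profiles was 0.5.

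The 8 genes, lists and tests were chosen with earlier results of these data known. Named were the 8 genes, Khdrbs3, markers, per list and WT comparison the called gene with the largest change in each direction (mean CPM at least 1), and the 2 most similar genes each. All replicate pairs differed by more than sampling noise (chi-square per degree of freedom 8.79 to 215.5). Splicing was not analysed here. The value of 1 further marker gene is not reported here.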

Additional observations from a re-analysis of the deposited data

Results flagged for a closer look

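Erbb4 in SST WT replicate 1 was 72.3 CPM, while the other 3 libraries of the group had 132.5 to 143 CPM, so that this library stood far from the rest. Its summed GABAergic interneuron markers were 5017 CPM, the lowest of the 4 but within a narrow range up to 5638 CPM. Its sum of somatostatin interneuron markers was the highest of the 4, 2753 CPM against 1320 to 2444 CPM, and that of markers of other interneuron classes the lowest, 463 CPM against 579.6 to 664.5 CPM. Their part in the Erbb4 value was not tested. The Erbb4 difference between SST and either pyramidal population passed without it.

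Egfr in SST WT replicate 2 was 2.53 CPM, while the other 3 had 1.29 to 1.46 CPM. The same library had the highest marker sums of its group for astrocytes, 299 CPM against 148 to 181 CPM, for oligodendrocytes, 771 CPM against 379 to 693 CPM, and for vascular cells, 36.7 CPM against 11.5 to 24.8 CPM. The part of these cells in the Egfr value was not tested. Without it the Egfr difference between Grik and SST WT no longer passed (adjusted p = 0.122 by edgeR).

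These were 2 of 40 groups of 4 libraries checked for a value far from the others, and chance alone gives about 2.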

How the results depend on the processing

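Of 557 values of the 8 genes under other settings, 530 kept their direction and side of the threshold, 10 lost a call, 8 gained one and 9 changed sign. The sign changes were all in uncalled genotype differences. With the replicate block they were Nrg3 in CamK (-0.0017), Nrg2 (-0.0345) and Nrg3 (0.046) in Grik and Erbb2 in SST (-0.31). With limma-voom they were Nrg3 (0.030) and Erbb2 (0.0021) in Grik and Nrg2 in SST (-0.0023). Without scaling Erbb4 in SST was 0.00046, and with only the populations compared Nrg2 in SST was -0.0032.

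Same-numbered libraries showed little sign of pairing: within a population their deviations correlated at -0.100 to 0.13 over 6 pairs. Within a genotype the correlations were -0.068 to 0.066 over 13 pairs. So few pairs cannot settle whether a number marks a shared origin. The block ended the calls of Erbb4 between CamK and Grik WT (adjusted p = 0.0541), Nrg1 between CamK and Grik cKO (0.0838) and Nrg4 between Grik and SST cKO (0.0503), and called Erbb3 between Grik and SST cKO (0.0227).

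Leaving out 1 library changed the sign of uncalled differences with these ranges: between WT groups, Erbb2 (-0.36 to 0.43) and Nrg4 (-0.23 to 0.021) for CamK minus Grik and Erbb2 for CamK minus SST (-0.72 to 0.12); between cKO groups, Nrg4 for CamK minus Grik (-0.26 to 0.037). By genotype they were Erbb4 (-0.12 to 0.66) and Nrg3 (-0.018 to 0.078) in CamK. In Grik they were Erbb2 (-0.34 to 0.028), Erbb4 (-0.16 to 0.19), Nrg2 (-0.046 to 0.13) and Nrg3 (-0.064 to 0.028). In SST they were Erbb2 (-0.19 to 0.52), Erbb4 (-0.22 to 0.040), Nrg2 (-0.12 to 0.12) and Nrg3 (-0.043 to 0.053). The causes were not tested.

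Without scaling, Nrg4 was called lower than SST WT in CamK (adjusted p = 0.0369) and Grik (0.0455), where the median of all genes moved from -0.026 to -0.16 between Grik and SST WT. The number of the 8 genes called by genotype was 0 in every setting. Over all genes the genotype calls numbered 2 in each population. Over the alternatives CamK had 1 to 16, Grik 2 to 39 and SST 0 to 11, and the interactions had 0 to 11, 0 to 14 and 2 to 4. With the longest transcript as length, 4 of the 8 genes kept their place in the order of CamK WT, CamK cKO, SST WT and SST cKO, and the share of Nrg2 in SST WT fell from 13.1 to 8.22%. Low counts limit Erbb2 and Nrg4, with 6 to 86 reads per library.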
